A study of Mus musculus with 6 samples.

Results

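Messenger RNA levels of 8 transcription factor genes that act in gut, liver and other endoderm-derived tissues were described in 344SQ cells after knockdown of Pik3ca. The genes were Cdx1, Cdx2, Hnf4a, Hnf4g, Onecut2, Foxa1, Foxa2 and Foxa3. A probe set was taken as a member when the platform annotation gave it exactly 1 gene symbol and that symbol was one of the 8. This rule found 16 probe sets, among 45037 probe sets that were not array controls, and all 8 genes among 18193 genes tested. The members were chosen by measured values, the differences between these same groups, because Cdx2, Hnf4a and Onecut2 were higher in the PIK3CA shRNA cells. The changes of the members between the groups are therefore given as sizes with errors and without p-values, and the number of members called is a consequence of that choice. No filter on low values was applied, so every member stayed in the table.

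The 344SQ line is a murine lung cancer cell line, known as a metastatic adenocarcinoma line. The PIK3CA shRNA group held 3 arrays of cells given vectors that express a short hairpin RNA (shRNA) against mouse Pik3ca. The control shRNA group held 3 arrays of cells given a control hairpin. Both groups shared the parental line, the serum-containing RPMI medium and the lipid transfection of vectors, per the labels. The number of hairpin sequences, whether lines were clones, and the time from transfection to harvest are not given in the sources used here. Nothing in the labels says that the 3 arrays of a group came from separate cultures, so the spread between them may be technical.

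CDX1 and CDX2 are homeodomain proteins of the intestinal epithelium, where CDX2 is known to set and hold intestinal identity. HNF4A and its paralogue HNF4G are nuclear receptors that act on genes of absorption, lipoprotein and liver metabolism. FOXA1, FOXA2 and FOXA3 are forkhead pioneer factors that open chromatin in endoderm, and FOXA1 and FOXA2 are also present in normal lung epithelium. ONECUT2 belongs to the cut-homeodomain family of liver, pancreas and gut. In mouse lung adenocarcinoma, tumours without the lung factor NKX2-1 are known to express HNF4A and gastric genes with the help of FOXA1 and FOXA2.

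The promoter sequences of Cdx2, Hnf4a and Foxa1, from the RefSeq promoter table (build GRCm38.p6), are shown first. These genes were higher together, and the factors are known to bind each other's genes. Onecut2 was also higher, but member windows on its chromosome, 18, were left out. Each line gives the 250 bases before the annotated start, 5′ to 3′ on the strand of the gene, with any match to the 4 searched motifs in capitals. Hnf4a is known to be read from an upstream and a downstream promoter, and both annotated starts are shown.
Cdx2, chr5:147307250-147307499, minus strand: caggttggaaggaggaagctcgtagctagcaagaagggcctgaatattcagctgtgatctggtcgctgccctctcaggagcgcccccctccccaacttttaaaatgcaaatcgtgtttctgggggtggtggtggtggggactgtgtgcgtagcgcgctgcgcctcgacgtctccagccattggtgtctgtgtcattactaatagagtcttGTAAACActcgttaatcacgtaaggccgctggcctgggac
Hnf4a upstream start, chr2:163506607-163506856, plus strand: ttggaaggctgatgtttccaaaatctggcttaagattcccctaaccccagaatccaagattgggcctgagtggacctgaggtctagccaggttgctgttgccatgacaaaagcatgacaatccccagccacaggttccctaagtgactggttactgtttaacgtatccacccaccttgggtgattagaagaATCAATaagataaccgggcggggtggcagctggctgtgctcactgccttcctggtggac
Hnf4a downstream start, chr2:163546905-163547154, plus strand: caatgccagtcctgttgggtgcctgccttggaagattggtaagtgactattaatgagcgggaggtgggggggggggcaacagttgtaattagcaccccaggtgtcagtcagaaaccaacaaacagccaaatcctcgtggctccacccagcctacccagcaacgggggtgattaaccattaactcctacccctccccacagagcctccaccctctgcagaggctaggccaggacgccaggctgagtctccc
Foxa1, chr12:57546112-57546361, minus strand: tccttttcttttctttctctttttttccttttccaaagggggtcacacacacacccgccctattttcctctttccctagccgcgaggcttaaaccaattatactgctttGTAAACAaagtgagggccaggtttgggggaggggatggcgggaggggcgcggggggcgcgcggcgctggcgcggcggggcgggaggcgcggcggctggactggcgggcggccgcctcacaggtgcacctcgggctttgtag

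The motifs searched on both strands were CAAAGTCCA for HNF4, TTTATTG for CDX, TGTTTAC for FOXA and ATTGAT for ONECUT. The Cdx2 window held 1 FOXA match, whose first base lay 40 bases before the start. The Foxa1 window also held 1 FOXA match, 141 bases before the start. Of all 32851 promoter windows of this length, 3.17% held a FOXA match. The upstream Hnf4a window held 1 ONECUT match 59 bases before the start, a motif found in 6.72% of all windows, and the downstream Hnf4a window held none of the 4. Neither the HNF4 motif, found in 0.384% of all windows, nor the CDX motif, found in 4.20%, occurred in these 4 windows. Of the other members, Foxa2 has 3 windows, 1 of them with an ONECUT match 213 bases before the start, and Foxa3 has 1 window with no match. A match is a description of the letters, and its absence covers only these windows. None of the matches shown overlapped another.

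The arrays were alike in their overall values, with medians of 134.1 to 134.7 in the PIK3CA shRNA group and 134.3 to 134.5 in the control shRNA group. The targeted gene was Pik3ca, the gene of the alpha catalytic subunit of phosphoinositide 3-kinase. Its brightest probe set read 1249, 1235 and 1223 in PIK3CA shRNA cells, against 2452, 2323 and 2362 in control shRNA cells. The ratio of the means was 0.519, and of its 6 probe sets 5 were lower in PIK3CA shRNA cells with no overlap between groups. The summed intensity of 9 epithelial markers, from Krt18 as the highest to Cldn4 as the lowest, ran from 53146 to 53916 in PIK3CA shRNA cells and from 53204 to 56136 in control shRNA cells. The sums of 9 leukocyte markers, 735 to 991 in PIK3CA shRNA cells and 811 to 1015 in control shRNA cells, overlapped. So did those of 6 endothelial markers, at 680 to 799 in PIK3CA shRNA cells and 678 to 718 in control shRNA cells. Those of 8 fibroblast markers, at 699 to 1134 in PIK3CA shRNA cells and 831 to 933 in control shRNA cells, overlapped as well. Nkx2-1, the master factor gene of lung epithelium, read 116, 125 and 63.9 in PIK3CA shRNA cells and 141, 105 and 102 in control shRNA cells. The groups overlapped, and 5 of these 6 values lay below the array median.

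Each difference below is the PIK3CA shRNA mean minus the control shRNA mean of log2(intensity + 16). The added 16, the pseudocount, lowers the change of dim probe sets. A gene is represented by its brightest probe set, and a gene was called when limma's p, adjusted by Benjamini-Hochberg over all 18193 genes, was under 0.05. Of the 8 members, 4 were called higher (Cdx2, Hnf4a, Onecut2 and Foxa1), 0 were called lower and 4 were not called. Over all genes, 5.88% were called higher and 5.62% lower, and 33.1% had groups that did not overlap. The median change of the 8 members was 0.49 on the log2 scale, beside -0.01 over all genes. Of their 16 probe sets, 9 were called higher when every probe set was tested, beside 2.64% of all probe sets. These numbers follow from how the members were picked. Probe sets of 1 gene share their target and are not replicates. Leaving out any 1 array left Cdx2, Hnf4a and Onecut2 called, which is no independent evidence, since they were picked on these arrays. Foxa1 kept its call without PIK3CA shRNA replicate 2 and lost it without any 1 of the other 5 arrays, while its change stayed between 0.36 and 0.40.

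**Figure D1:**
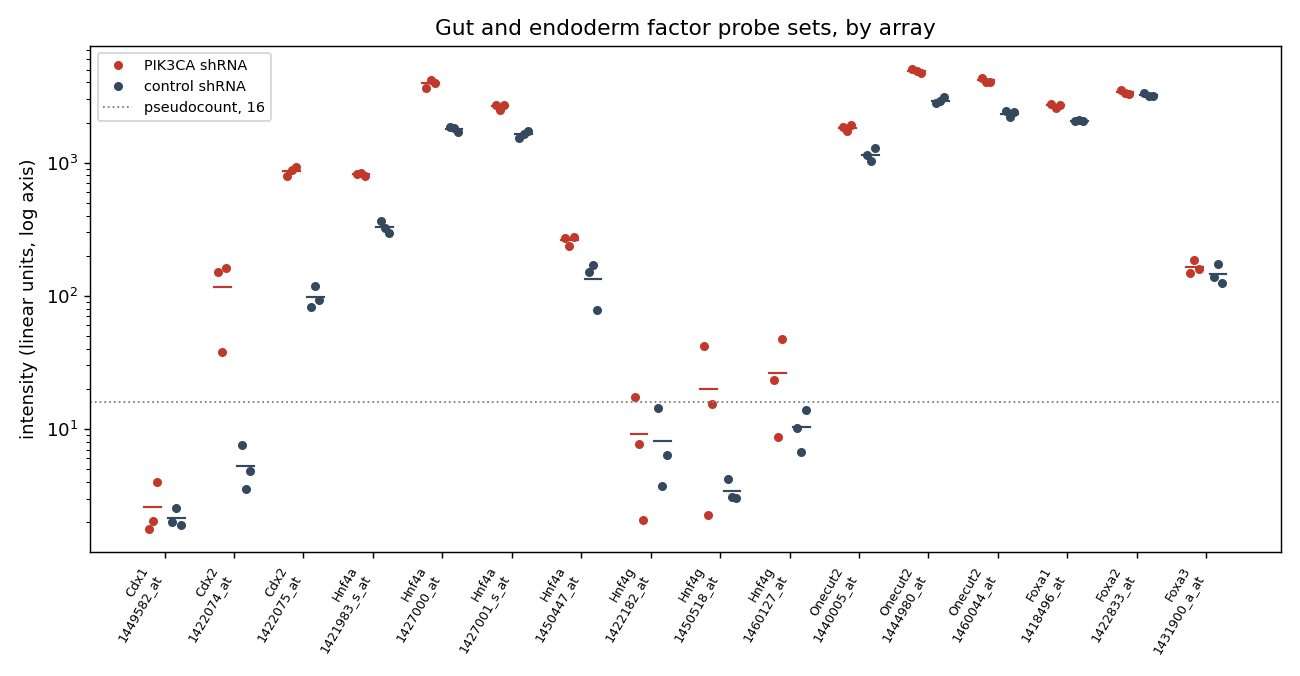
Intensity of the 16 member probe sets on each array, on a log axis. Points are arrays, bars are group means, and the dotted line marks the pseudocount of 16. All probe sets of Cdx2, Hnf4a, Onecut2 and Foxa1 have PIK3CA shRNA arrays above the control shRNA arrays, and those of Cdx1 and Hnf4g lie mostly near or under the dotted line.

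Among the intestinal homeobox genes, Cdx2 had the largest difference of the 8 members. Its brighter probe set (1422075_at) read 788, 878 and 922 in PIK3CA shRNA cells, against 82.2, 118 and 93.4 in control shRNA cells. The lowest PIK3CA shRNA array was several times above the highest control array, and the mean ratio was 8.82. On the log2 scale the difference was 2.96 with a standard error of 0.13.

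The second Cdx2 probe set (1422074_at) read 152, 37.7 and 161 in PIK3CA shRNA cells and 7.53, 3.53 and 4.82 in control shRNA cells. The groups did not overlap here either, but the control arrays all lay under the pseudocount and PIK3CA shRNA replicate 2 was far under the other PIK3CA shRNA arrays. Its difference was 2.46 with a standard error of 0.48. The same array was not low on the brighter Cdx2 probe set, where it read 878.

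Cdx1, the paralogue that shares the intestinal epithelium with Cdx2, gave no such pattern. Its single probe set read 1.77, 2.02 and 4.02 in PIK3CA shRNA cells and 1.98, 2.54 and 1.89 in control shRNA cells. All 6 values were far below 16 and the groups overlapped, with a difference of 0.03 and a standard error of 0.07. Some 15.0% of all values fell under 16, and the table holds no detection calls. A change of Cdx1 was not detectable at this signal.

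Of the nuclear receptor genes, Hnf4a differed between the groups. The probe set used for the gene (1427000_at) read 3658, 4141 and 3993 in PIK3CA shRNA cells, against 1838, 1807 and 1688 in control shRNA cells. The lowest PIK3CA shRNA array lay far above the highest control array, and control cells already gave a clear signal. The mean ratio was 2.21, and the log2 difference was 1.14 with a standard error of 0.07.

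All 4 Hnf4a probe sets were higher in PIK3CA shRNA cells with no overlap between groups, as were 13.0% of all probe sets. Probe set 1421983_s_at read 821, 837 and 791 in PIK3CA shRNA cells and 362, 324 and 294 in control shRNA cells, a log2 difference of 1.28. Probe set 1427001_s_at read 2721, 2487 and 2713 in PIK3CA shRNA cells and 1519, 1638 and 1730 in control shRNA cells. Its difference was smaller, 0.69, with a standard error of 0.08 when every probe set was tested. In that fit the standard error of 1427000_at was also 0.08. Between them the 4 probe sets thus gave ratios from 1.62 to 2.50. The dimmest, 1450447_at, read 271, 237 and 275 in PIK3CA shRNA cells and 150, 170 and 78.7 in control shRNA cells. Its difference of 0.95 had the largest standard error of the 4, 0.26, and it was the only Hnf4a probe set not past the threshold when every probe set was tested. Which promoter of Hnf4a each probe set reports was not determined.

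The gene antisense to Hnf4a, Hnf4aos, overlaps it on chromosome 2 and was looked at outside the naming rule for that reason. It read 117, 117 and 105 in PIK3CA shRNA cells and 119, 98.5 and 149 in control shRNA cells. The groups overlapped, and the log2 difference was -0.08 with a standard error of 0.14.

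Hnf4g, which shares targets with Hnf4a in the intestine, was dim on all 3 of its probe sets. The one used for the gene (1460127_at) read 23.3, 8.74 and 47.5 in PIK3CA shRNA cells and 10.1, 6.73 and 13.9 in control shRNA cells. PIK3CA shRNA replicate 2 lay within the control range and the groups overlapped. Its difference of 0.60 had a standard error of 0.35. Probe set 1450518_at read 42.2, 2.26 and 15.4 in PIK3CA shRNA cells and 4.23, 3.07 and 3.02 in control shRNA cells, again with PIK3CA shRNA replicate 2 the lowest of that group. The third, 1422182_at, had means of 9.08 in PIK3CA shRNA cells and 8.16 in control shRNA cells. Most of these values lie under the pseudocount, so Hnf4g cannot be placed as higher or level from these arrays.

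Onecut2 had 3 probe sets and all were higher in PIK3CA shRNA cells. Probe set 1444980_at, used for the gene, read 5050, 4846 and 4697 in PIK3CA shRNA cells, against 2783, 2884 and 3084 in control shRNA cells. Probe set 1460044_at read 4345, 4025 and 4059 in PIK3CA shRNA cells and 2422, 2195 and 2386 in control shRNA cells. The third, 1440005_at, read 1841, 1716 and 1922 in PIK3CA shRNA cells and 1131, 1026 and 1290 in control shRNA cells. None of the 3 showed overlap between groups, and they gave nearly the same ratio, from 1.59 to 1.78. The log2 differences were 0.73, 0.82 and 0.67, with standard errors of 0.08, 0.08 and 0.11 when every probe set was tested. Onecut2 gave a clear signal in control cells too, and its difference was smaller than that of Cdx2 or Hnf4a.

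Of the forkhead pioneer factors, Foxa1 differed between the groups. Its probe set read 2770, 2592 and 2693 in PIK3CA shRNA cells and 2058, 2083 and 2037 in control shRNA cells. The groups did not overlap, and the arrays of each group were close together, with coefficients of variation of 3.31% in PIK3CA shRNA cells and 1.12% in control shRNA cells. The mean ratio was 1.30 and the log2 difference 0.38 with a standard error of 0.06.

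Foxa2 read 3488, 3333 and 3296 in PIK3CA shRNA cells and 3329, 3173 and 3181 in control shRNA cells. The lowest PIK3CA shRNA array lay just under the highest control array, and the difference was 0.06 with a standard error of 0.06. Foxa3, the paralogue best known from liver and gut, read 149, 185 and 160 in PIK3CA shRNA cells and 138, 174 and 124 in control shRNA cells, with overlapping groups and a difference of 0.17 with a standard error of 0.14.

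**Figure D2:**
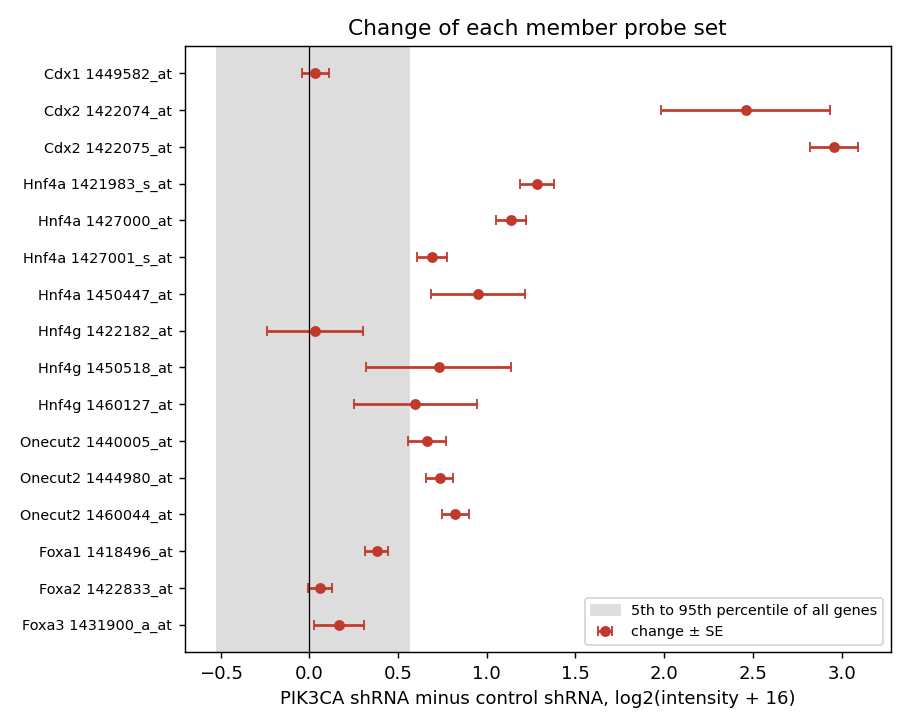
Log2 difference of each member probe set, PIK3CA shRNA minus control shRNA, with its standard error; the grey band runs from the 5th to the 95th percentile of all genes. The 2 Cdx2 probe sets lie farthest to the right at 2.46 and 2.96, and Cdx1, Foxa2 and Foxa3 lie near 0.

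The members sit on 6 chromosomes, with Hnf4a and Foxa2 sharing chromosome 2, and Cdx1 and Onecut2 sharing chromosome 18. The 5 tested genes on each side of a member were looked at after the data were seen. Over all genes, 5.88% were called higher and 5.62% lower. Around Cdx2 on chromosome 5, 0 of 10 neighbours were called higher and 1 lower, with a median log2 change of -0.18. Pdx1, the pancreatic and duodenal homeobox gene next to Cdx2, read 1052, 1173 and 1069 in PIK3CA shRNA cells and 1213, 1226 and 1239 in control shRNA cells. Its difference was -0.16 ± 0.07 (SE; limma adjusted p = 0.206), the opposite sign to its neighbour.

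Around Hnf4a, with Hnf4aos among them, 0 of 10 neighbours were called in either direction, and their median change was -0.12. The whole of chromosome 2, with 1399 tested genes, had a median change of 0.12, and with that shift taken out Hnf4a differed by 1.02. Taking it out of Foxa2 left -0.06, so the sign of that small difference turned. Over the genes of chromosome 2 brighter than the median gene, the median change was larger, 0.20, and that shift was not taken out. The median of chromosome 5, with 1122 tested genes, was -0.10. Around Onecut2, 2 of 10 neighbours were called higher, Atp8b1 at 1.61 and Nedd4l at 0.26, and the neighbours' median was -0.02. Of the 10 neighbours of Foxa2, 2 were called higher, the thrombomodulin gene Thbd at 3.14 and Xrn2 at 0.43. Their median was 0.17 over all 10, while Foxa2 itself differed by 0.06. Around Foxa1, 1 of 10 neighbours was called lower, the paired-box factor gene Pax9 at -0.45.

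**Figure D3:**
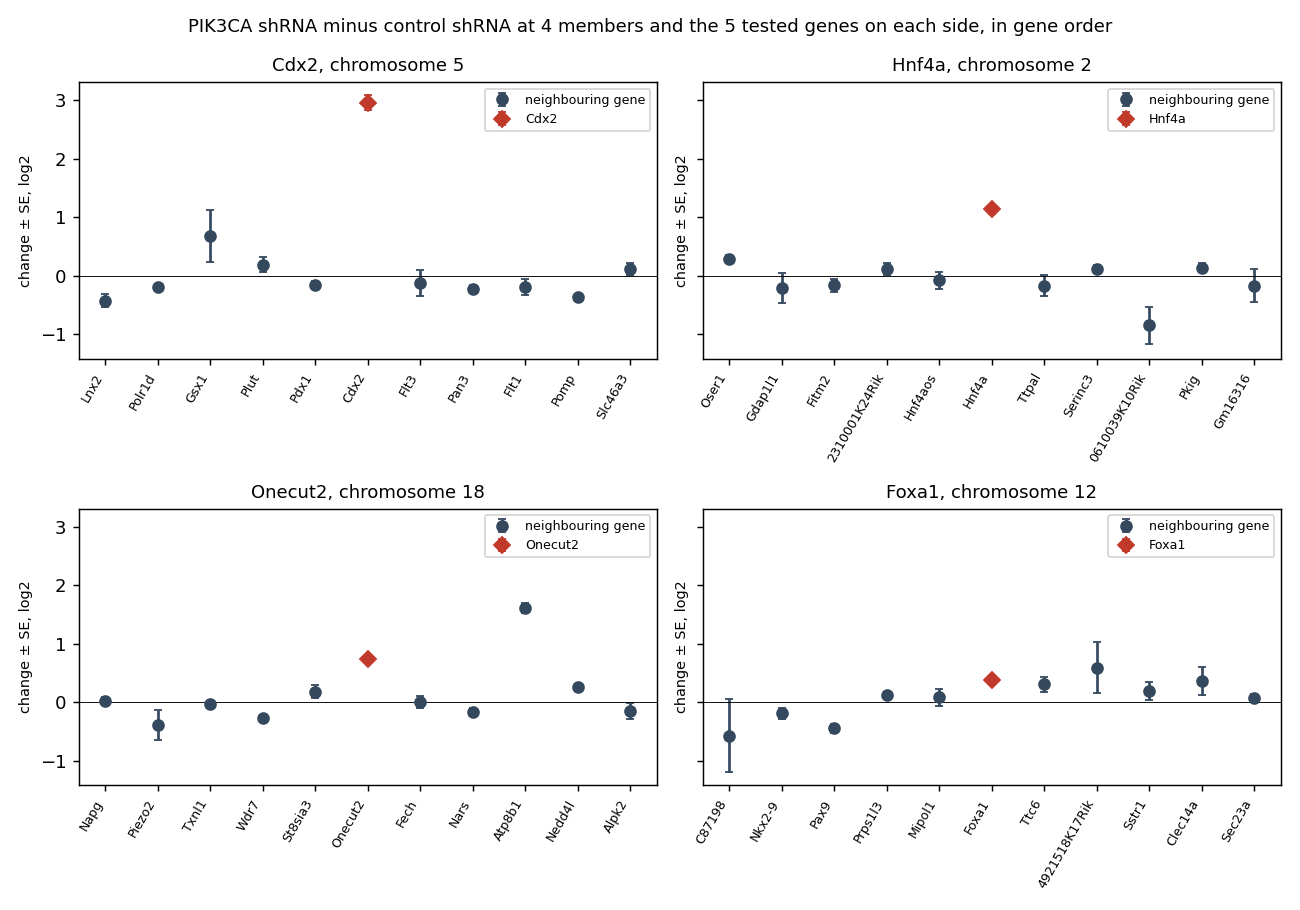
Log2 difference, PIK3CA shRNA minus control shRNA, with standard error, for Cdx2, Hnf4a, Onecut2 and Foxa1 (diamonds) and the 5 tested genes on each side in gene order (circles). Most neighbours of Cdx2 and Hnf4a lie near or below 0, and Atp8b1, close to Onecut2, is higher than Onecut2 itself.

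The genes with the most similar profile were found by the root mean square distance over the 6 arrays between log2 values centred on each gene's mean. The nearest to Cdx2 were Tcim at a distance of 0.13, Tceal1 at 0.13 and Thbd at 0.14. Tcim, for example, read 1764, 1665 and 1700 in PIK3CA shRNA cells and 205, 241 and 233 in control shRNA cells. The nearest to Hnf4a were Prpmp5 at 0.06, Gpm6b at 0.06 and the Notch ligand gene Jag1 at 0.07. Prpmp5 was dim, with means of 27.0 in PIK3CA shRNA cells and 2.99 in control shRNA cells. For Onecut2 they were the mesothelin gene Msln at 0.04, the epoxide hydrolase gene Ephx2 at 0.05 and Lurap1l at 0.05. In 2 groups of 3 arrays such likeness mostly reflects a like difference between the groups.

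Transcription factors that share endodermal lineages with the members mostly did not pass the test. Of 31 listed, 28 were analysed here, and 2 rose and 0 fell, with a median log2 change of 0.14, beside 5.88% of all genes called higher. Hhex, a homeobox gene of liver and foregut endoderm, rose to 2055, 2061 and 2146 in PIK3CA shRNA cells, against 1329, 1324 and 1377 in control shRNA cells (log2 change 0.63, limma adjusted p = 0.00302). Klf4, a zinc finger factor of differentiated gut epithelium, rose by 0.46 (limma adjusted p = 0.0112). Its other probe set read 0.15 with a standard error of 0.22, and with the mean of both probe sets Klf4 was not called.

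The GATA factors of gut and foregut did not pass. Gata6 read 1817, 1880 and 1846 in PIK3CA shRNA cells and 1681, 1634 and 1698 in control shRNA cells, a difference of 0.14 (limma adjusted p = 0.167). Gata4 read 246, 226 and 224 in PIK3CA shRNA cells and 250, 262 and 319 in control shRNA cells, a difference of -0.24 (limma adjusted p = 0.239). In neither gene did the groups overlap. The paralogues of Onecut2 were dim: Onecut1 read 48.0 to 69.1 in PIK3CA shRNA cells and 42.8 to 73.0 in control shRNA cells, and Onecut3 read 2.00 to 5.55 in PIK3CA shRNA cells and 3.98 to 13.3 in control shRNA cells. The foregut factor gene Sox2 read 2.29 to 8.74 in PIK3CA shRNA cells and 4.30 to 22.9 in control shRNA cells. The definitive endoderm gene Sox17 read 53.2 to 104 in PIK3CA shRNA cells and 58.9 to 78.9 in control shRNA cells.

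Cofactors and upstream signalling genes moved in both directions. Of 22 genes, all analysed, 2 rose and 4 fell, with a median log2 change of 0.04, beside 11.5% of all genes called in either direction. Crebbp, a histone acetyltransferase that works with HNF4A, rose to 2013, 2001 and 2123 in PIK3CA shRNA cells, against 1022, 1109 and 1149 in control shRNA cells (log2 change 0.90, limma adjusted p = 0.00218), and its 3 other probe sets passed in the same direction. Ppargc1a, the PGC-1alpha coactivator of HNF4A in liver, fell to 475, 458 and 458 in PIK3CA shRNA cells, against 831, 767 and 630 in control shRNA cells (log2 change -0.65), and its 4 other probe sets also passed. Ppargc1b, its paralogue, fell by 1.65 and the nuclear receptor coactivator gene Ncoa1 by 0.60, while the Groucho-type corepressor gene Tle3 rose by 0.49. The 3 other Tle3 probe sets differed by 0.24 to 0.35, and none was called. Lef1, a WNT-responsive factor gene, fell by 0.51 (limma adjusted p = 0.0480). The limma adjusted p of these 6 genes ran from 0.00218 for Crebbp to that of Lef1. Their neighbours on the chromosome, such as those of Crebbp on chromosome 16, were not looked at. Ncoa1 was not called with the mean of its probe sets or with its probe set of widest interquartile range. Lef1 was also not called with a pseudocount of 1, with array weights, with the trend and robust prior, or under any other choice of probe sets that was run. With 1 array left out, the calls for Ppargc1a and Tle3 held only without control shRNA replicate 3 and that for Lef1 only without PIK3CA shRNA replicate 1. The list held 3 calls without control shRNA replicate 1 or without PIK3CA shRNA replicate 3, compared with 6 in all.

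Genes of intestinal, hepatic and gastric epithelium, among them known targets of the members, included large rises, but most were not called. These 3 lists were compiled with earlier results of these data known, so their counts are no independent evidence of a direction. Of the 91 genes analysed, 15 (16.5%) rose and 2 (2.20%) fell, beside 5.88% of all genes called higher and 5.62% lower. With any 1 array left out, 10 to 12 rose and 0 or 1 fell. That Cdx2 or Hnf4a acts on any of them here was not tested.

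Of 41 intestinal genes, 39 were analysed, and 6 rose and 2 fell, with a median log2 change of 0.01. The calls made up 20.5% of the genes analysed, beside 11.5% of all genes. Groups did not overlap in 7 genes that were higher in PIK3CA shRNA cells and in 5 that were lower. Over all genes, 33.1% had groups that did not overlap in either direction. Muc2 (-0.03), Lct (-0.10) and Cdhr5 (-0.04), named after their values were seen, were not called. Lgals4, a galectin of intestinal epithelium, rose to 4334, 4102 and 4084 in PIK3CA shRNA cells, against 204, 183 and 155 in control shRNA cells. That was a ratio of 23.1 and a log2 change of 4.42 ± 0.11 (SE; limma adjusted p = 0.000115). Cdh17, the liver-intestine cadherin gene and a known CDX2 target, rose to 3482, 3346 and 3504 in PIK3CA shRNA cells, against 331, 351 and 286 in control shRNA cells. Krt20, a keratin of differentiated gut cells, rose to 577, 579 and 588 in PIK3CA shRNA cells, against 93.7, 107 and 82.3 in control shRNA cells. In all 3 genes the groups were far apart and the call held without any 1 array.

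Other intestinal genes were dimmer and less even between arrays. Guca2a, which encodes the hormone guanylin, read 328, 226 and 324 in PIK3CA shRNA cells and 25.5, 28.9 and 82.2 in control shRNA cells, a log2 change of 2.42. Vil1, the brush border villin gene, read 248, 163 and 258 in PIK3CA shRNA cells and 10.4, 11.4 and 69.9 in control shRNA cells. In both genes control shRNA replicate 3 was the highest control array and PIK3CA shRNA replicate 2 the lowest of its group. Fabp2, an intestinal fatty acid binding protein gene, went the other way, at 14.6, 11.04 and 4.62 in PIK3CA shRNA cells and 46.7, 74.2 and 36.8 in control shRNA cells. The remaining calls were small. The brush border myosin gene Myo1a rose by 0.32 and the amino acid transporter gene Slc6a19 fell by 0.46, and both calls were lost whichever array was left out. Both were also not called with every probe set tested, and neither Slc6a19 nor Vil1 was called with a pseudocount of 1. Myo1a and Vil1 were named after their values were seen. The calls for Vil1 and Fabp2 held only without control shRNA replicate 3, and that for Guca2a only without control shRNA replicate 3 or PIK3CA shRNA replicate 2. The list held 3 calls without control shRNA replicate 1, without control shRNA replicate 2, without PIK3CA shRNA replicate 1 or without PIK3CA shRNA replicate 3, and 4 without PIK3CA shRNA replicate 2, compared with 8 in all.

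Among 33 of 36 hepatic genes analysed, 4 rose and 0 fell, with a median log2 change of 0.04. The calls made up 12.1% of the genes analysed, close to the 11.5% of all genes. Apob, the structural protein of chylomicrons and very low density lipoprotein, rose to 874, 761 and 863 in PIK3CA shRNA cells, against 83.2, 92.5 and 104 in control shRNA cells (log2 change 2.96, limma adjusted p = 0.000160). Another Apob probe set went the opposite way at -0.51, with means of 118 in PIK3CA shRNA cells and 174 in control shRNA cells, and was not past the threshold. Apoc2, the cofactor of lipoprotein lipase, rose by 1.92, and Ttr, the thyroid hormone carrier transthyretin, rose by 1.06. Ttr was not called with its probe set of widest interquartile range. The 3 other Ttr probe sets differed by 0.04 to 1.42, and none was called. Apoa1, the main protein of high density lipoprotein and a known HNF4A target, read 61.6, 72.8 and 127 in PIK3CA shRNA cells and 21.2, 25.2 and 11.96 in control shRNA cells. Its call held without PIK3CA shRNA replicate 1 or 3 and was lost without PIK3CA shRNA replicate 2 or any 1 control array. The 3 other Apoa1 probe sets differed by 0.68 to 1.15, and none was called when every probe set was tested.

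Of 21 gastric genes, 19 were analysed, and 5 rose and 0 fell, with a median log2 change of 0.14. The calls made up 26.3% of the genes analysed, beside 11.5% of all genes. Ctse, the gastric protease cathepsin E, rose to 4453, 4450 and 4403 in PIK3CA shRNA cells, against 1288, 1352 and 1246 in control shRNA cells, while its other probe set differed by 0.15 with overlapping groups. Tff2, a trefoil peptide of gastric mucous cells, rose to 240, 202 and 239 in PIK3CA shRNA cells, against 15.8, 17.5 and 14.7 in control shRNA cells. Muc1, a transmembrane mucin gene, rose by 3.21 and the annexin gene Anxa10 by 1.08. The other Anxa10 probe set differed by 0.43 with overlapping groups, and Anxa10 was not called with the mean of both. Their limma adjusted p ran from 0.000115 for Tff2 to 0.00532 for Anxa10. Sult1c2, a sulfotransferase gene named after its values were seen as the only other call, read 132, 102 and 132 in PIK3CA shRNA cells and 12.1, 57.8 and 12.6 in control shRNA cells, and of the fits with 1 array left out kept its call only without control shRNA replicate 2. It was also not called with a pseudocount of 1 or with every probe set tested.

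**Figure D4:**
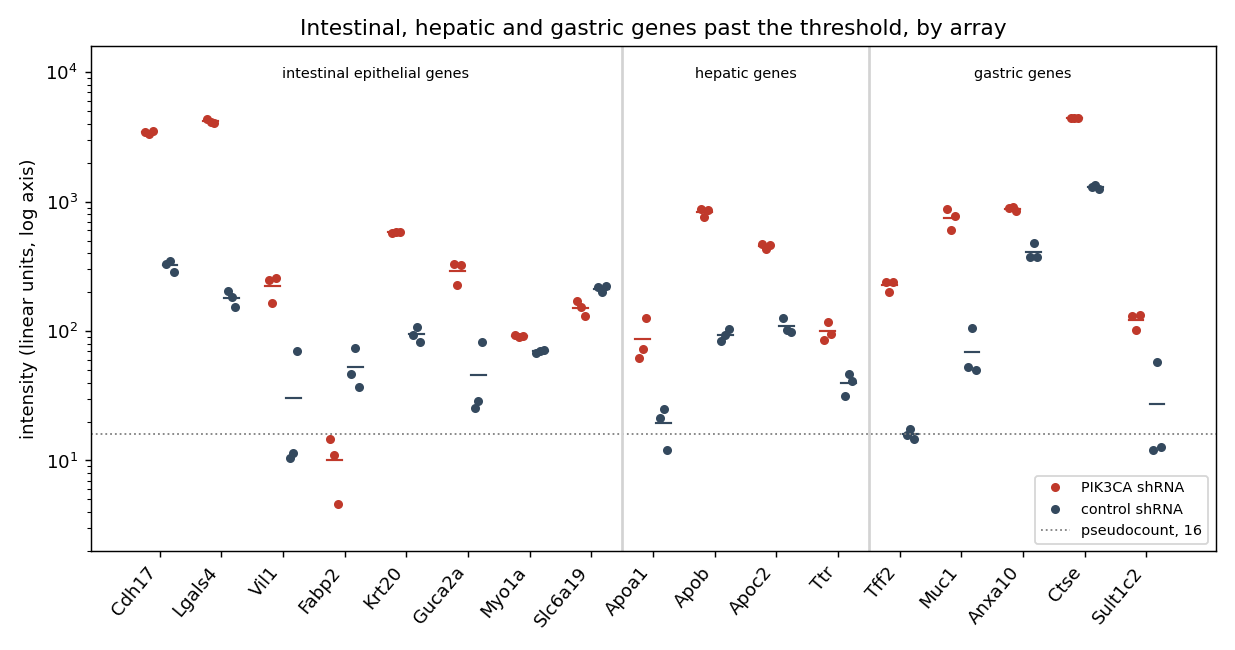
Intensity on each array, on a log axis, of the 17 intestinal, hepatic and gastric genes past the threshold; points are arrays and bars are group means. Lgals4, Cdh17 and Ctse lie between 3346 and 4453 in PIK3CA shRNA cells, while Fabp2 and Slc6a19 are lower there.

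Of 25 lung lineage genes listed, 24 were analysed, and 0 rose and 1 fell, with a median log2 change of -0.10. Over all genes, 5.62% fell. Aqp5, the water channel gene of alveolar type I cells, fell to 60.1, 74.2 and 69.7 in PIK3CA shRNA cells, against 411, 395 and 395 in control shRNA cells (log2 change -2.31, limma adjusted p = 0.000163). Without control shRNA replicate 3 the list held 2 calls, 1 rise and 1 fall. For Nkx2-1 the difference was -0.20 ± 0.25 (SE; limma adjusted p = 0.683). Of the epithelial markers 1 of 9 rose, the tight junction gene Ocln, by 0.99, and of the fibroblast markers 1 of 8 fell, the dim matrix gene Dcn, by 0.75, while another Dcn probe set differed by 0.09. No leukocyte or endothelial marker passed.

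**Figure D5:**
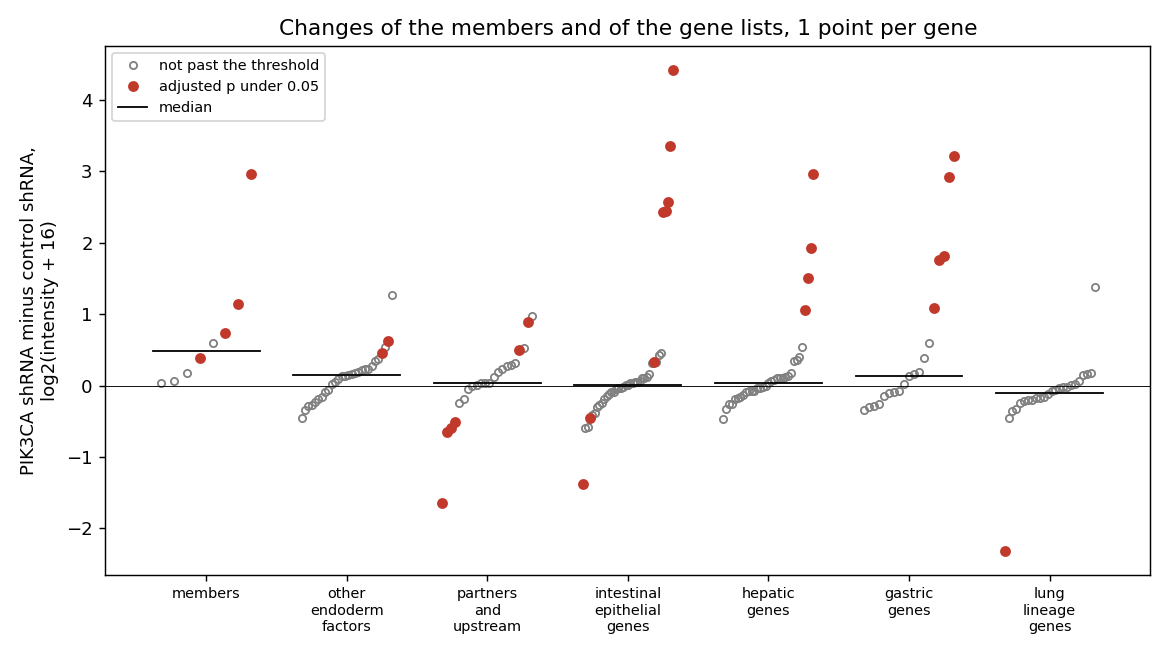
Log2 difference of each gene, PIK3CA shRNA minus control shRNA, for the members and 6 gene lists; filled points passed limma's adjusted p of 0.05 and lines are list medians. The medians of the 6 lists lie between -0.10 and 0.14. Within the 6 lists, the largest rises past the threshold are single genes of the intestinal, hepatic and gastric lists. Not past it, Muc5b of the lung lineage list differs by 1.38 and Osr1 of the other endoderm factors by 1.26.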

How the data were processed

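Affymetrix mouse arrays with a biotin label were read for 3 PIK3CA shRNA and 3 control shRNA samples, per the labels' protocols. The values the authors deposited are linear intensities, from 0.0359 upward, with nearly equal quartiles on every array (lower 37.5 to 37.6, upper 533 to 535). How they were summarised and normalized is not given in the labels or headers. The printed intensities are those values. No detection calls were given. Precision is limited by there being 3 arrays a group.

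For the tests, 64 control probe sets of 45101 were left out, arrays were scaled to a common median, and log2(intensity + 16) was taken. Gene symbols came from the annotation of the platform: 34945 probe sets had 1 gene symbol, 932 several and 9160 none listed; 34741 matched the RefSeq gene table of GRCm38.p6 and 0 symbols changed. Each gene took its brightest single-symbol probe set. The test was limma's moderated linear model (version 3.58.1, R 4.3.3; lmFit, eBayes, two-sided) with no block for replicate number, and Benjamini-Hochberg adjustment over 18193 genes. Values of single probe sets come from the same fit over all probe sets. The steps were tested on simulated data.

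The members and gene lists were chosen with earlier results of these data known. Named were all members, Pik3ca, up to 4 called genes per list and direction by adjusted p, the 3 nearest profiles of Cdx2, Hnf4a and Onecut2, and a fixed set of related factors; others are said to be named after their values were seen. Neighbouring genes and chromosome medians, and the antisense gene of Hnf4a, were added after the data were seen. Promoter windows are from RefSeq. Member windows on chromosome 18 were left out, and 5 of the 8 members then had a window. Plots used matplotlib 3.10.9 (Python 3.11.15).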

Additional observations from a re-analysis of the deposited data

How the results depend on the processing

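Alternatives were run for the counts of calls and for each member's change. Cdx2 and Hnf4a were called under every alternative run. Onecut2 lost its call with the replicate block, and Foxa1 with the block, at adjusted p 0.01 and without any 1 of 5 arrays. The members were picked on these same arrays, so calls that hold are no independent evidence of a rise. Over these alternatives and the removal of the chromosome median, the log2 change ran from 2.52 to 3.14 for Cdx2, 1.02 to 1.28 for Hnf4a, 0.70 to 0.82 for Onecut2 and 0.35 to 0.40 for Foxa1. Deviations from the group means of arrays sharing replicate number 1, 2 or 3 correlated at 0.0586, -0.00744 and -0.0234, so the numbers were not taken as pairs. With the replicate number as a block, 413 genes passed in place of 2093, with 2 members, 1 other endoderm factor, 1 cofactor or upstream gene and 3 intestinal genes. All genes past the threshold numbered 1253 with every probe set tested, 636 at adjusted p 0.01, 3192 when eBayes used a trend on intensity and a robust prior, and 945 to 1138 with 1 array left out. At adjusted p 0.01 the lists held 1 other endoderm factor, 2 cofactor or upstream genes, 3 intestinal genes and 2 hepatic genes. With the mean of probe sets 1 other endoderm factor passed, and with the trend and robust prior 4 did. Lung lineage calls were 2 when each gene took its probe set with the widest interquartile range, with the trend and robust prior, and without control shRNA replicate 3, in place of 1. With 1 array left out, other endoderm factors gave 2 to 3 calls, cofactors and upstream genes 3 to 5, intestinal genes 3 to 6, and lung lineage genes 1 to 2. The causes of these differences were not tested. Quantile normalization and upper-quartile centring moved no count by more than 1.5 times, and neither did the pseudocount, the filter on dim genes or array weights for calls of both directions together. By direction, 1 intestinal gene in place of 2 fell with a pseudocount of 1, with dim genes left out and with array weights. With dim genes left out, 4 cofactor or upstream genes in place of 2 rose, and Fabp2, Apoa1, Sult1c2 and Dcn were not called. In the hepatic list 1 gene in place of 0 fell with a pseudocount of 64 and with dim genes left out. Dim signal limits what can be said of Cdx1, Hnf4g and the second Cdx2 probe set.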
